A study of Homo sapiens with 6 samples.

Results

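The HOX genes of clusters A, B, C and D were examined in RNA-seq libraries of HepG2, a human liver cancer cell line. Members were the genes of the deposited table whose symbol is HOX followed by a letter from A to D and a number, with antisense genes left out. This rule gave 24 of 20026 genes, of which 11 lie in HOXA, 2 in HOXB, 5 in HOXC and 6 in HOXD, and other HOX genes were not analysed here. The study compared 3 groups of 2 libraries each to ask what miR-23a and miR-27a, small RNAs made from the same transcript, do in these cells. The control cells (Scr) were labelled WT and had received the CRISPR/Cas9 vector PX458 with no miRNA-targeting sequence. For the KO cells, the same vector carried a sequence directed at the gene of miR-23a (miR-23a KO) or of miR-27a (miR-27a KO). The study also found other members of this miRNA cluster lowered in the edited cells, miR-27a and miR-24 in miR-23a KO and miR-24 in miR-27a KO, so neither group is the loss of a single miRNA. KO colonies were grown from single sorted cells, and the labels do not say which colony a library came from. A difference between groups can therefore not be told apart from a difference between colonies.

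HOX genes encode homeodomain transcription factors that give cells their position along the body axis. They lie in clusters on separate chromosomes, and in the embryo the order of the genes within a cluster follows the order in which they are switched on, from the low-numbered to the high-numbered genes. Retinoic acid, CDX factors and trithorax proteins are known to activate them and Polycomb proteins to hold them silent, while PBX, MEIS and PKNOX proteins bind DNA together with HOX proteins.

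The libraries summed to 14891239 and 14405250 for Scr, 16515261 and 15930779 for miR-23a KO, and 15850589 and 15947308 for miR-27a KO. The miRNA genes themselves were not analysed here, and only the label tells the group of a library. The labels also give a cell type wording that does not match HepG2, and the titles were followed. All 10 hepatocyte-like markers checked were detected in each library, with SERPINA1 highest by mean count over all libraries. By mean CPM, ALB lay above SERPINA1 in Scr and miR-23a KO and under it in miR-27a KO. In Scr and miR-23a KO this order came from replicate 2, while ALB lay under SERPINA1 in replicate 1 of both. The labels do not say that the libraries of a group came from separate cultures, so p-values measure the spread between these libraries, which may be technical. This spread differed between the groups. Of 13132 genes, 6.41% lay more than 2-fold apart between the Scr libraries, 46.3% between the miR-23a KO libraries and 1.64% between the miR-27a KO libraries. Among the 8 HOX genes in that set, HOXA2 was over 2-fold apart in Scr, 4 were in miR-23a KO, HOXA3, HOXD3 and HOXD4 among them, and 0 were in miR-27a KO.

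The mature sequences of the 2 edited miRNAs are shown with the sites found in HOX genes, because a miRNA binds the 3'-UTR of its targets mainly through its seed. The sequences came from RefSeq (GRCh38.p14), where miR-23a-3p lies at chr19:13836595-13836615 and miR-27a-3p at chr19:13836447-13836467, both on the minus strand. Capitals mark the seed, bases 2 to 8.
miR-23a-3p: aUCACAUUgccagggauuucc
miR-27a-3p: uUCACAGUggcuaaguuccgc
Exact matches to the seed (AATGTGA for miR-23a-3p and ACTGTGA for miR-27a-3p) were searched in 3'-UTRs of GENCODE release 29, using the longest of each gene. A miR-23a-3p match was found in 4 of the 24 HOX genes (HOXA3, HOXA11 and HOXD10 among them), beside 19.3% of 15889 genes. A miR-27a-3p match was found in 4 of 24 as well (HOXA5, HOXA10, HOXA13 and HOXC6), beside 16.7% of genes. HOXD1, HOXD3, HOXD4, HOXD9 and HOXD11 held no match to either seed. The sites of HOXA3 and HOXA5, which had enough counts for a test, are given with the match in capitals and the position of the match in the 3'-UTR.
HOXA3, miR-23a-3p match at base 336: gtcgagttttcAATGTGAatttgttcttac
HOXA5, miR-27a-3p match at base 538: ctgtgatgaaaACTGTGActccaagcggtg
HOXA5, miR-27a-3p match at base 686: gttttaagcaaACTGTGAtcagcttttttt

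HOX expression in HepG2 came almost wholly from HOXA and HOXD, and the HOXD share differed between the groups. Levels of different genes were compared as FPKM, computed here from the counts and the longest annotated transcript of each gene. The summed FPKM of HOXD was 19.5 and 18.7 in the Scr libraries, 6.36 and 11.1 in the miR-23a KO libraries, and 79.6 and 73.3 in the miR-27a KO libraries. The groups did not overlap, with miR-27a KO highest and miR-23a KO lowest. HOXA kept the same order without overlap on this scale but within a narrower range, with a summed FPKM of 17.4 ± 0.692 for Scr, 14.7 ± 0.624 for miR-23a KO and 20.9 ± 0.565 for miR-27a KO (mean ± SD, n = 2). HOXD thus made up 52.2% of the HOX FPKM of Scr, 36.4% of that of miR-23a KO and 78.4% of that of miR-27a KO. As ratios of the group means, HOXD was 4.0-fold higher in miR-27a KO than in Scr and 2.19-fold lower in miR-23a KO than in Scr, while the same ratios of HOXA were 1.2-fold higher and 1.19-fold lower. As summed counts over library totals, HOXA in miR-23a KO replicate 2 lay above both Scr libraries. These sums are descriptions with no test. In bulk RNA, fewer cells that express a gene and less RNA per cell cannot be told apart.

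**Figure D1:**
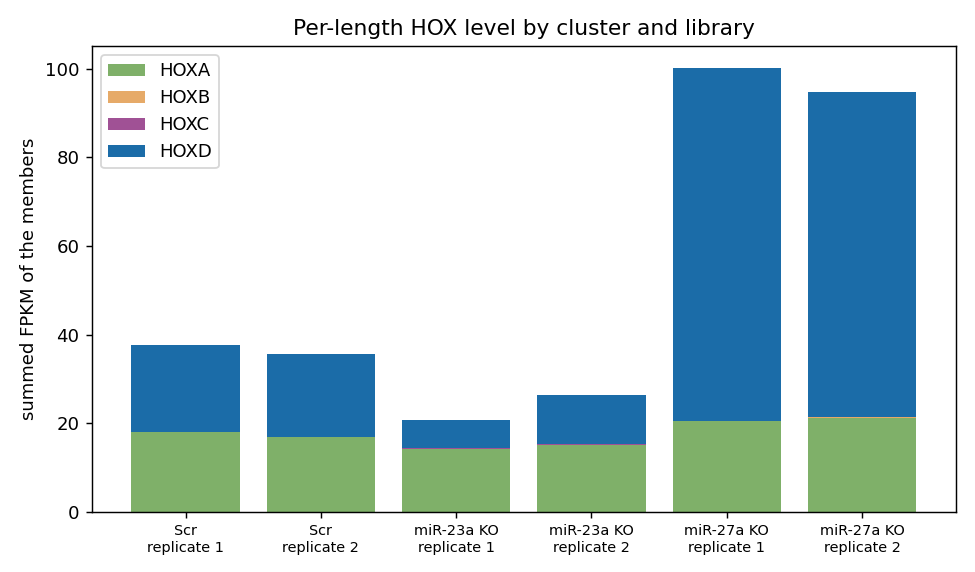
Summed FPKM of the HOX genes (vertical axis) in each of the 6 libraries, stacked by cluster. The HOXD part reached 79.6 and 73.3 in miR-27a KO, from 19.5 and 18.7 in Scr, while HOXB and HOXC were too low to be seen.

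HOXB and HOXC were near 0 in every library. HOXB2 and HOXB7, the HOXB members, gave between 0 and 1 counts per library in sum. The 5 HOXC members (HOXC4, HOXC6, HOXC8, HOXC10 and HOXC13) gave between 1 and 4. The HOXB member with the highest FPKM was HOXB7 in Scr, which had 1 count in Scr replicate 1, and HOXB2 in miR-27a KO, which had 1 count in replicate 2. At this depth, differences in these clusters were not detectable. HOXA6, HOXA7, HOXA9, HOXA11 and HOXA13 also stayed between 0 and 7 counts per library.

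**Figure D2:**
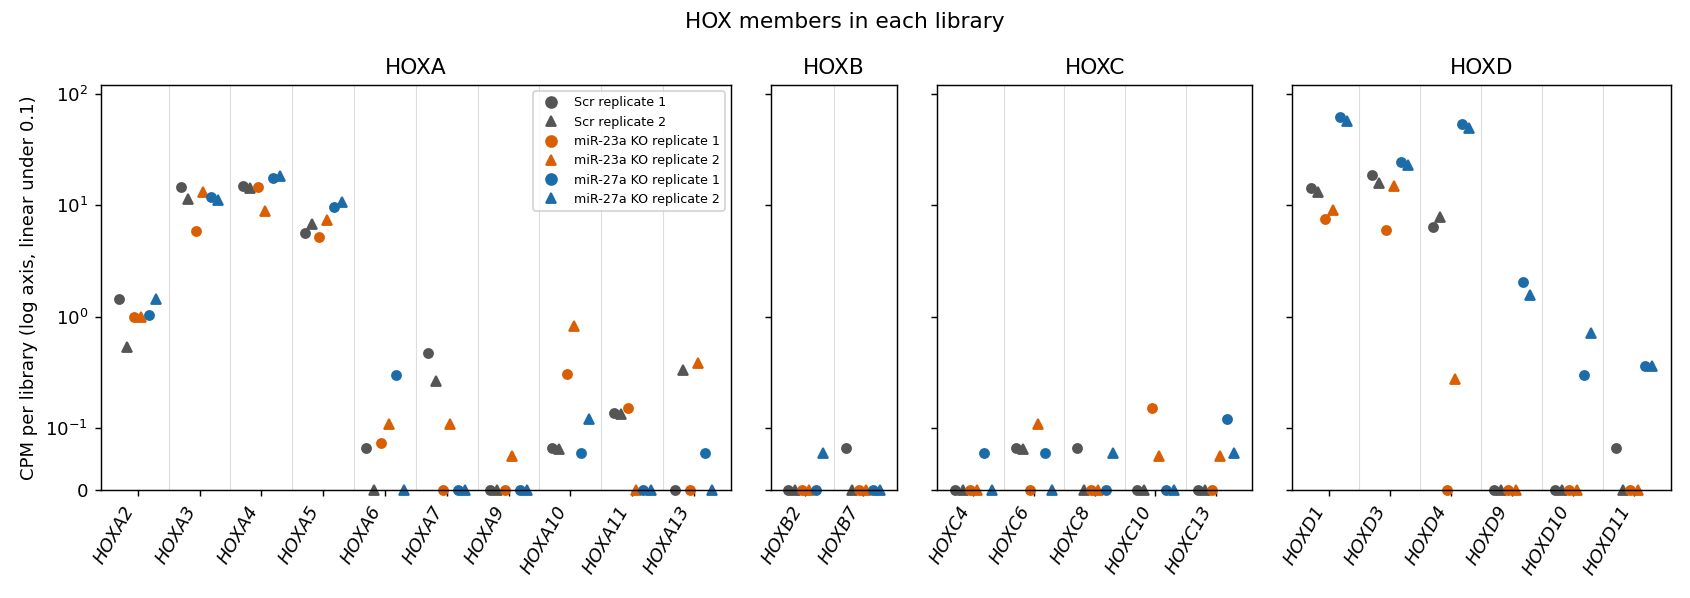
Library-scaled counts (CPM, vertical log axis, linear under 0.1) of 23 HOX genes, with 1 point per library, by cluster. HOXD1 and HOXD4 lay between 49.1 and 62.3 CPM in the miR-27a KO libraries, above all other libraries, and HOXD4 lay at 0 and 0.274 CPM in miR-23a KO.

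In Scr cells the genes with the highest FPKM belonged to paralog groups 1 to 5 of both clusters. HOXA4 came first with 8.36 ± 0.299 (SD, n = 2), which was above 67.8% of the 17919 genes with a length. HOXD3 followed with 7.28 ± 0.897 and HOXD1 with 6.93 ± 0.428. The SD range of HOXD3 overlapped those of HOXA4 and HOXD1, though each HOXA4 value lay above each HOXD3 value. HOXD4 had 4.88 ± 0.756, HOXA3 3.82 ± 0.670 and HOXA5 3.78 ± 0.501. These SD ranges also overlapped, though each HOXD4 value lay above each value of HOXA3 and HOXA5. HOXA2 was lower, at 0.544 ± 0.350. The order differed in the KO groups. In miR-23a KO HOXA4 was again first at 6.72 ± 2.31, within the spread of HOXD3 at 4.42 ± 2.67, and HOXD4 was at 0.0937 ± 0.133. In miR-27a KO HOXD4 was first at 34.9 ± 1.90, before HOXD1 at 30.2 ± 1.95, and HOXA4 at 10.2 ± 0.290 and HOXD3 at 9.92 ± 0.516 did not differ beyond their spread.

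Several of these genes overlap in the annotation (GENCODE release 29, GRCh38). HOXD1 (gene 3231) lies at chr2:176188579-176190907, HOXD3 (gene 3232) at chr2:176136612-176173102, HOXD4 (gene 3233) at chr2:176151222-176153226 and HOXD9 (gene 3235) at chr2:176122720-176124937, all on the plus strand. The HOXD3 span holds all 2005 bases of HOXD4 on the same strand. The HOXA3 span likewise holds HOXA4, HOXA5 and HOXA6, and the antisense gene HOXA-AS2 lies within it. HOXD10 and HOXD11 share 965 bases on the same strand. The antisense gene HOXD-AS2 spans HOXD9, and the antisense gene HAGLR overlaps HOXD3 and the start of HOXD1. Neither antisense gene was in the table. How the authors' counting divided reads between such genes, and whether it used strand, is not given in the sources used here. The values of HOXD3 against HOXD4, of HOXD10 against HOXD11 and of HOXA3 against its neighbours are uncertain to that extent. So are those of HOXD1, HOXD3 and HOXD9 against antisense reads. HOXA-AS2 had 261 and 239 counts for Scr, 173 and 259 for miR-23a KO, and 303 and 306 for miR-27a KO. HOXA10-HOXA9, a readthrough of both genes, had between 0 and 7 counts, and HOXA11-AS had between 0 and 1. Of 26 noncoding genes listed within the clusters, these 3 were in the table, and HOXA-AS2 was tested, at a log2 fold change of 0.10 (SE 0.15) in miR-27a KO against Scr.

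In the comparison of miR-27a KO with Scr cells, HOXD1 and HOXD4 were higher in miR-27a KO. HOXD4 had 93 and 118 counts in Scr and 876 and 817 in miR-27a KO, which is 7.14 ± 1.11 and 51.1 ± 2.78 CPM (SD, n = 2). Both miR-27a KO libraries lay far above both Scr libraries, and HOXD4 was 7.06-fold higher, a log2 fold change of 2.82 (SE 0.16) with an adjusted p of 0.00262 (edgeR quasi-likelihood F-test, Benjamini-Hochberg adjustment). HOXD1, the gene at the 3' end of the cluster and one that retinoic acid can switch on, had 209 and 195 counts in Scr and 1029 and 946 in miR-27a KO. It was 4.29-fold higher, a log2 fold change of 2.10 (SE 0.12) with an adjusted p of 0.00323 (edgeR, Benjamini-Hochberg). HOXD9, a posterior gene, was at 0 counts in each Scr library and had 34 and 26 in miR-27a KO. Against a floor of 3 counts over the Scr group it was at least 17.8-fold higher. It passed the filter on low counts only through the miR-27a KO libraries and so had to differ, and its p is not given as support. HOXD4 ranked 54 and HOXD1 ranked 115 of 13820 genes by log2 fold change. Intervals and floors given here cover counting error only.

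HOXD3, whose RefSeq start lies between those of HOXD4 and HOXD1, had 276 and 236 counts in Scr and 405 and 379 in miR-27a KO. Both miR-27a KO libraries were above both Scr libraries, yet the log2 fold change was 0.43 (SE 0.16) with an adjusted p of 0.137 (edgeR quasi-likelihood F-test, Benjamini-Hochberg adjustment), which did not pass. With GC content and length corrected it was 0.67 and passed, with an adjusted p of 0.0248 by edgeR with Benjamini-Hochberg adjustment, where the 7 alternatives of this result ranged from 0.0248 to 0.991. HOXD10 had 0 and 0 counts in Scr and 5 and 12 in miR-27a KO, at least 5.05-fold higher. HOXD11 had 1 and 0 in Scr and 6 and 6 in miR-27a KO, 10.7-fold higher with a 95% counting interval of 1.58 to 457. Both fell below the filter on low counts and were not tested. Summed over HOXD9, HOXD10 and HOXD11, the counts were 45 and 44 in miR-27a KO and 1 and 0 in Scr, so the signal was small but present in both miR-27a KO libraries.

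HOXA genes gave no call in this comparison. HOXA4 had 219 and 212 counts in Scr and 289 and 303 in miR-27a KO, a log2 fold change of 0.27 (SE 0.15) with an adjusted p of 0.262 (edgeR, Benjamini-Hochberg). HOXA5, which holds the miR-27a-3p matches shown above, had 83 and 102 counts in Scr and 159 and 177 in miR-27a KO. Its log2 fold change was 0.68 (SE 0.21) with an adjusted p of 0.0985 (edgeR, Benjamini-Hochberg), and it passed without Scr replicate 2, at 0.81 with an adjusted p of 0.0105 by the same edgeR test, where leaving out each library in turn gave 0.0105 to 0.6. HOXA3 had 213 and 169 counts in Scr and 196 and 186 in miR-27a KO, and HOXA2 had 21 and 8 against 17 and 24, so the libraries of the groups overlapped for both. HOXA7 had 7 and 4 counts in Scr and 0 and 0 in miR-27a KO, at least 4.12-fold lower, and was not tested. The members of HOXA thus lay on both sides of Scr in miR-27a KO, with none past the test.

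By count, and HOXD9 aside because it could only be tested where it was high, 2 of 8 HOX genes tested were called higher in miR-27a KO (fold change over 1.5, adjusted p under 0.05) and 0 lower, beside 487 (3.52%) and 931 (6.74%) of 13820 genes. No HOX gene was lower at an unadjusted p under 0.05 or by DESeq2 either. At an adjusted p under 0.001, the limit of the study, 0 HOX genes and 4 genes in all (0.0289%) were called by edgeR, and HOXD1 and HOXD4, HOXD9 aside, by DESeq2, beside 841 of 14453 genes, with unadjusted edgeR p-values of 5.72e-06 for HOXD4 and 7.87e-06 for HOXD1. The lower of the miR-27a KO libraries exceeded the higher Scr library for 5 of these 8 HOX genes (HOXA4, HOXA5, HOXD1, HOXD3 and HOXD4), beside 33.4% of genes, and the reverse held for 1, beside 31.0%. The median log2 fold change of the 9 was 0.43, also with HOXD9 at its bound, and that of all genes 0.01. The 9 include HOXD9, which had to differ, so their median is no more than a description. Without Scr replicate 2, HOXA5 and HOXD10, itself at 0 counts in Scr, were called as well, and the calls over all genes went from 1418 to 3716 of 14296. One choice ended the calls. With all 6 libraries in one fit, which shares the wider miR-23a KO spread, edgeR with Benjamini-Hochberg adjustment gave an adjusted p of 0.0517 for HOXD1 and 0.142 for HOXD4. Over the 7 alternatives the range was 2.71e-22 to 0.0517 for HOXD1 and 1.07e-30 to 0.142 for HOXD4.

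Liver markers also moved in this comparison. Of the 10 hepatocyte-like markers, edgeR called ALB, AFP and FGB lower and TF higher in miR-27a KO, beside 6.74% and 3.52% of all genes. Their log2 fold changes were -2.59, -4.11, -2.05 and 1.25. The 10 together had 431795 and 550754 counts for Scr, 415949 and 609939 for miR-23a KO, and 426365 and 427708 for miR-27a KO. Of 6 fibroblast markers, COL1A1 and PDGFRB were in the table, and they summed to 252 and 433 counts for Scr, 392 and 366 for miR-23a KO, and 95 and 85 for miR-27a KO, nearly all from PDGFRB. The 3 endothelial markers in the table, led by PECAM1, summed to 87 and 94 counts for Scr, 44 and 127 for miR-23a KO, and 70 and 93 for miR-27a KO. The 4 leukocyte markers summed to 92 and 78, 50 and 37, and 106 and 96, with PTPRC between 1 and 2 counts. The part of these differences in the HOX results was not tested.

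**Figure D3:**
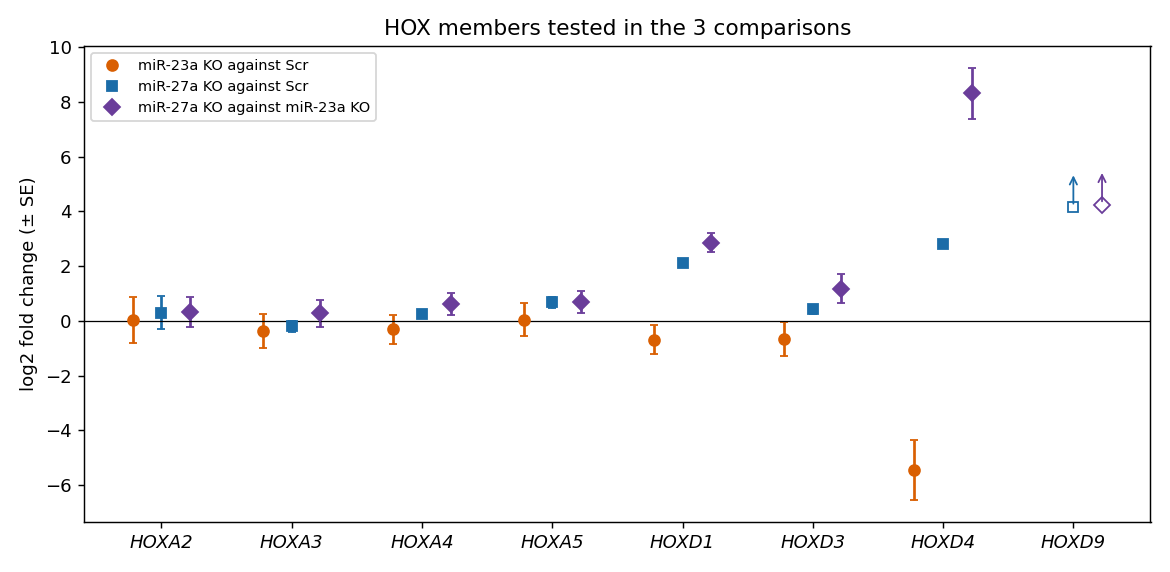
Log2 fold change with SE (vertical axis) of 8 HOX genes tested in at least 1 of the 3 comparisons, with filled symbols for fitted values and open symbols with arrows for the lower bounds of HOXD9. HOXD4 lay at -5.44 in miR-23a KO against Scr, 2.82 in miR-27a KO against Scr and 8.32 in miR-27a KO against miR-23a KO.

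In miR-23a KO cells, HOXD4 was nearly absent, but no HOX gene passed the test. HOXD4 had 0 and 5 counts in miR-23a KO against 93 and 118 in Scr, so both miR-23a KO libraries lay below both Scr libraries. The pooled counts, 5 against 211, made it 44.8-fold lower, with a 95% counting interval of 18.9 to 139. The log2 fold change was -5.44 (SE 1.10), with an unadjusted p of 0.0011 in the edgeR quasi-likelihood test over all genes and an adjusted p of 0.460 (Benjamini-Hochberg). HOXD4 passed the filter on low counts through the Scr libraries alone, so its p is no more than a description. The same limit holds for DESeq2, which gave HOXD4 an adjusted p of 6.23e-05 (Benjamini-Hochberg), and for the 7 alternatives of this result, which ranged from 4.87e-05 to 0.4. HOXD1 had 99 and 165 counts in miR-23a KO beside 209 and 195 in Scr, which is 8.31 ± 1.05 against 13.7 ± 0.846 CPM (SD, n = 2). Its log2 fold change was -0.68 (SE 0.54) and its adjusted p 1.00 (edgeR, Benjamini-Hochberg). HOXD3 had 79 and 274 counts against 276 and 236, a log2 fold change of -0.66 (SE 0.62) with an adjusted p of 1.00 (edgeR, Benjamini-Hochberg). The libraries of the groups did not overlap on the CPM scale for these 3 HOXD genes, while the other HOXD members had 0 counts in both miR-23a KO libraries and between 0 and 1 in Scr.

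HOXA genes lay closer to Scr in miR-23a KO, and the replicates of HOXA3 were over 2-fold apart. HOXA3 had 77 and 242 counts in miR-23a KO against 213 and 169 in Scr, HOXA4 had 191 and 162 against 219 and 212, and HOXA5 had 68 and 135 against 83 and 102. HOXA2 had 13 and 18 counts against 21 and 8. The libraries of the groups overlapped for each of these 4, with log2 fold changes between -0.38 and 0.05. HOXA10, a posterior gene, had 4 and 15 counts in miR-23a KO against 1 and 1 in Scr, a pooled ratio of 8.95 with a 95% counting interval of 2.16 to 79.3, and fell below the filter on low counts. HOXA7 had 0 and 2 counts against 7 and 4, 5.84-fold lower with a 95% counting interval of 1.27 to 54.2, and was not tested either.

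By count, 0 of 8 HOX genes and 0 of 13786 genes (0%) were called by edgeR in miR-23a KO against Scr. At an unadjusted p under 0.05, 0 HOX genes were higher and HOXD4 was lower, beside 118 (0.856%) and 214 (1.55%) of all genes. DESeq2 called 0 HOX genes higher and HOXD4 lower, beside 5 (0.0298%) and 58 (0.346%) of 16760 genes. HOXD4 entered both tests through its Scr counts alone and so had to differ, and these counts are not given as support. Both miR-23a KO libraries lay below both Scr libraries for 3 of 8 HOX genes, beside 13.7% of genes, and above for 0, beside 9.91%. Apart from HOXD4, which had to differ, the 3 were HOXD1 and HOXD3. The median log2 fold change of the 8 was -0.48 and that of all genes 0.16. The 8 include HOXD4, so their median is no more than a description. The miR-23a KO libraries decided part of this, where HOXD4 again entered through its Scr counts alone. Without miR-23a KO replicate 1, HOXD4 passed with an adjusted p of 0.0288, and without replicate 2 HOXD4 passed with 0.00169 and HOXD3 with 0.0246 at a log2 fold change of -1.55 (edgeR, Benjamini-Hochberg). Calls over all genes also went from 0 to 594 of 14417 (4.12%) without replicate 1 and to 2630 of 14136 (18.6%) without replicate 2. Leaving out each library in turn gave adjusted p-values of 0.00169 to 0.493 for HOXD4 and 0.0246 to 1.00 for HOXD3 by the same edgeR test.

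The KO groups were also compared with each other, which tests the difference between their departures from Scr since both share the Scr libraries. On the TMM-scaled CPM scale, HOXD1, HOXD3 and HOXD4 lay above Scr in both miR-27a KO libraries and below Scr in both miR-23a KO libraries. Scaled by library totals alone, HOXD3 in miR-23a KO replicate 2 lay above Scr replicate 2. Between the KO groups, HOXD4 had a log2 fold change of 8.32 (SE 0.93), from 1693 pooled counts against 5, with an adjusted p of 0.0961 (edgeR quasi-likelihood F-test, Benjamini-Hochberg adjustment). HOXD4 passed the filter on low counts here only through the miR-27a KO libraries, so this p is no more than a description. HOXD1 had 2.85 (SE 0.34) with an adjusted p of 0.101, and HOXD3 had 1.18 (SE 0.53) with an adjusted p of 0.656 (edgeR, Benjamini-Hochberg). HOXD9, again tested only through its miR-27a KO counts, was at least 18.9-fold higher there. HOXD10 was at least 5.35-fold and HOXD11 at least 3.78-fold higher, and neither was tested. In the other direction, HOXA10 was 6.70-fold lower in miR-27a KO from 3 pooled counts against 19, with a 95% counting interval of 1.97 to 35.4. From HOXA2 to HOXA5, log2 fold changes ran from 0.28 for HOXA3 to 0.70 for HOXA5.

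None of these differences passed in the edgeR test, which called 0 of 9 HOX genes and 0 of 13841 genes (0%). HOXD4 and HOXD9 were tested only through their miR-27a KO counts, so their calls in this paragraph are not given as support. With both aside, HOXD1 was higher at an unadjusted p under 0.05 and 0 HOX genes lower, beside 562 (4.06%) and 645 (4.66%) of all genes. DESeq2 called HOXD1 higher, HOXD4 and HOXD9 again aside, and 0 lower, beside 216 (1.45%) and 260 (1.75%) of 14891 genes. Each miR-27a KO library exceeded each miR-23a KO library for 6 of 8 HOX genes, HOXD9 aside, beside 19.9% of genes, and the reverse held for 0, beside 19.7%. Apart from HOXD4, which had to differ, the 6 were HOXA2, HOXA4, HOXA5, HOXD1 and HOXD3. The median log2 fold change of the 9 was 0.70, also with HOXD9 at its bound, and that of all genes -0.11. The 9 include HOXD4 and HOXD9, so their median is no more than a description. Leaving out 1 library changed these counts. Without either miR-27a KO library HOXD4 was called, beside 76 of 14436 and 72 of 14392 genes, and without either miR-23a KO library 7 HOX genes were, HOXD9 and HOXD10 among them. Over all genes, 4907 of 14361 (34.2%) were called without miR-23a KO replicate 1 and 7303 of 14207 (51.4%) without replicate 2. HOXA4 was called higher, at 1.04, and HOXA10, which passed the filter there only through its 15 counts in the library left, lower without miR-23a KO replicate 1, and HOXA3 and HOXA5 without replicate 2, at 0.97 for both, while HOXA3 was at -0.17 without replicate 1.

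**Figure D4:**
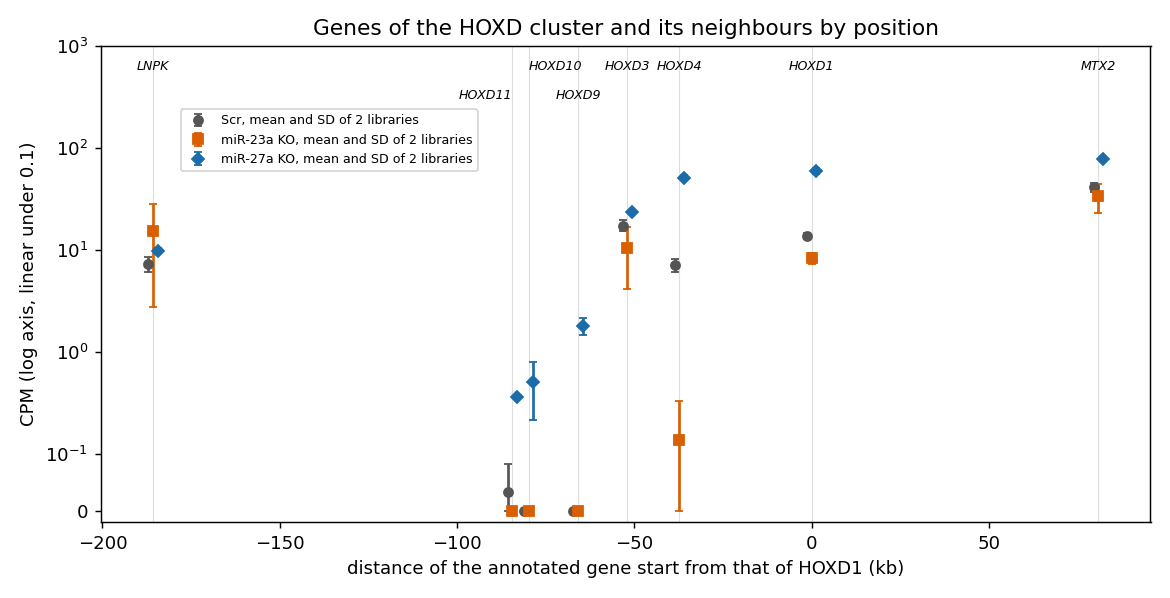
Mean CPM with SD of 2 libraries (vertical log axis, linear under 0.1) of the HOXD genes and their neighbours LNPK and MTX2, by distance of the annotated gene start from that of HOXD1 (horizontal axis, kb). In miR-27a KO the HOXD genes were highest at HOXD1 and HOXD4, with 59.6 and 51.1 CPM, and 1.81, 0.512 and 0.362 CPM at HOXD9, HOXD10 and HOXD11.

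Along the HOXD cluster, HOXD4 and HOXD1 had the highest levels in miR-27a KO and HOXD9 to HOXD11 the lowest. The annotated start of HOXD4 lies 37.4 kb from that of HOXD1, that of HOXD3 52.0 kb, HOXD9 65.9 kb, HOXD10 79.8 kb and HOXD11 84.4 kb. Per length, HOXD4 and HOXD1 had 34.9 and 30.2 FPKM in miR-27a KO, HOXD3 had 9.92, HOXD9 had 0.968 ± 0.187, HOXD10 0.257 ± 0.149 and HOXD11 0.236 ± 0.00120 (SD, n = 2). MTX2, which encodes a protein of the mitochondrial outer membrane, starts 80.8 kb beyond HOXD1. It had 645 and 565 counts for Scr, 344 and 759 for miR-23a KO, and 1302 and 1290 for miR-27a KO. It rose in miR-27a KO by a log2 fold change of 0.91 (SE 0.11) with an adjusted p of 0.0134 (edgeR, Benjamini-Hochberg), which became 0.0631 and 0.0687 without miR-27a KO replicates 1 and 2, and ranged from 7.01e-06 to 0.521 over its 7 alternatives. On the other side, LNPK, chosen after its values were seen, starts 186 kb away and had 94 and 121 counts for Scr, 85 and 448 for miR-23a KO, and 169 and 159 for miR-27a KO. Of the 12 neighbours of the 4 clusters tested, MTX2 was the only one called in miR-27a KO, beside 3.52% higher and 6.74% lower of all genes, with a median log2 fold change of 0.38 for the 12, and HNRNPA1, beside HOXC, had the most counts.

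The promoters of HOXD1, HOXD3 and HOXD4 are shown because these neighbouring genes differed from Scr in both KO groups without overlap of the libraries after TMM scaling. Each runs from 250 bases before to 50 after the start of the gene in RefSeq (GRCh38.p14), on the plus strand, and 15 of the 24 members had such an entry, with 22 windows in all. Capitals mark GC boxes (GGGCGG) and CCAAT boxes on either strand, and no matches overlap. The windows lie at chr2:176188418-176188717 for HOXD1, chr2:176157057-176157356 for HOXD3 and chr2:176151300-176151599 for HOXD4.
HOXD1 promoter: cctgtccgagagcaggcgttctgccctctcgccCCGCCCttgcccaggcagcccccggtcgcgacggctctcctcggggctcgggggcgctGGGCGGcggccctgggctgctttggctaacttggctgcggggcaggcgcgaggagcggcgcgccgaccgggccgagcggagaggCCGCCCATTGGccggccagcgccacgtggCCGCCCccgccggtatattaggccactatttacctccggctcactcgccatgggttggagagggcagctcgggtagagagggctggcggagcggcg
HOXD3 promoter: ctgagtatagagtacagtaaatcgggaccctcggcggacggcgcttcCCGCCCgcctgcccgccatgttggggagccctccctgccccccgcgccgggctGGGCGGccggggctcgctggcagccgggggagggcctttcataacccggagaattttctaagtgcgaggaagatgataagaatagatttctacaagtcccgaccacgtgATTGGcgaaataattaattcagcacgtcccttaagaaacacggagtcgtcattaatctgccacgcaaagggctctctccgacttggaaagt
HOXD4 promoter: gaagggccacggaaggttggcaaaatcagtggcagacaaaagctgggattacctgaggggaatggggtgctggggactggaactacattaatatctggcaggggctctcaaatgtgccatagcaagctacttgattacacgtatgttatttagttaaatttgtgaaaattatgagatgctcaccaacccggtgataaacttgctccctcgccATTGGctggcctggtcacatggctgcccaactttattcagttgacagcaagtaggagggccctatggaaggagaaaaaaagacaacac
The windows differed in base composition. The HOXD1 window was 74.3% GC with 36 CG dinucleotides, the HOXD3 window 58.0% with 25, and the HOXD4 window 47.3% with 4, beside medians of 58.7% and 14 over 34943 promoters. HOXD1 held 4 GC boxes and 1 CCAAT box, HOXD3 2 and 1, and HOXD4 0 and 1. A GC box was present in 12 of the 22 HOX windows and 44.9% of all promoters, and a CCAAT box in 14 and 34.6%. TATAAA was present in 4 of 22 and 11.6%, and TGATTNAT, a form bound by PBX with HOX proteins, in 2 and 2.82%. AGGTCA, a retinoid receptor core site, and TTTATGG, a CDX site, were in 0 of the 22 windows, beside 13.8% and 2.55% of promoters, searched on both strands. A match describes the letters and not a bound site. The transcripts of HOXD genes were also rich in GC, with a median of 58.3% against 54.2% for all HOX members and 49.3% for 17919 genes.

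Among the genes that act on HOX clusters, those of retinoic acid and CDX input held 3 calls in miR-27a KO. Of 21 listed, 18 were in the table and 11 were tested, with ALDH1A1 called higher and 2 genes lower, CDX2 among them, beside 3.52% and 6.74% of all genes, and a median log2 fold change of 0.05. CDX2, an intestinal homeodomain factor, had 78 and 79 counts for Scr, 189 and 135 for miR-23a KO, and 3 and 6 for miR-27a KO. It fell by 4.27 on the log2 scale (SE 0.44) with an adjusted p of 0.00883 (edgeR, Benjamini-Hochberg). CDX2 passed the filter on low counts only through the Scr libraries, so its p and its call are no more than descriptions. ALDH1A1, which makes retinoic acid from retinal, had 3353 and 3800 counts for Scr, 2421 and 5503 for miR-23a KO, and 10521 and 10444 for miR-27a KO. It rose by a log2 fold change of 1.37 (SE 0.09) with an adjusted p of 0.00400 (edgeR, Benjamini-Hochberg). STRA6, the receptor for retinol-binding protein, was chosen after its values were seen because its order of groups was that of HOXD4, with 154 and 66 counts for Scr, 0 and 4 for miR-23a KO, and 417 and 388 for miR-27a KO. Its log2 fold change was 1.68 (SE 0.40) in miR-27a KO against Scr, with an adjusted p of 0.0512 (edgeR, Benjamini-Hochberg), which ranged from 0.000212 to 0.58 over its 7 alternatives, with DESeq2 among the 4 under 0.05. With all 6 libraries in one fit, the adjusted p was 0.0545 for CDX2 and 0.231 for ALDH1A1 (edgeR, Benjamini-Hochberg), and over the 7 alternatives it ranged from 4.47e-07 to 0.0545 and from 7.68e-26 to 0.231.

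**Figure D5:**
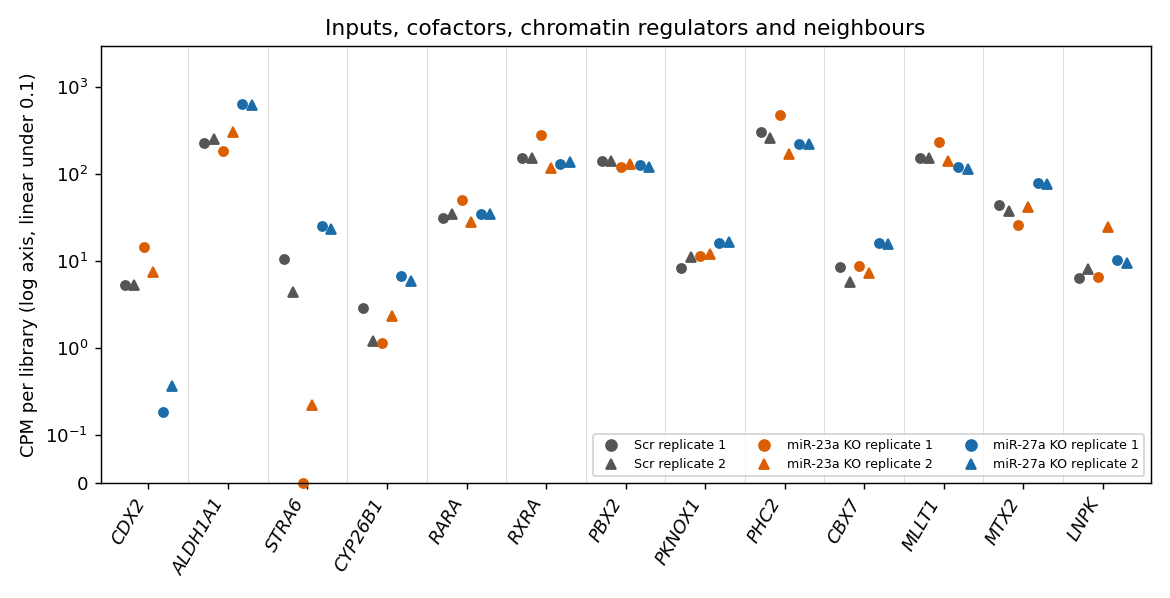
CPM (vertical log axis, linear under 0.1) of 13 genes that act on or lie beside HOX clusters, with 1 point per library. CDX2 fell to 3 and 6 counts with miR-27a KO from 78 and 79 in Scr, and STRA6 had 0 and 4 in miR-23a KO against 417 and 388 in miR-27a KO.

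Chromatin regulators and cofactors of HOX proteins gave 1 call by edgeR. Of 29 Polycomb genes tested in miR-27a KO against Scr, CBX7, which binds the Polycomb histone mark, was called higher and 0 lower, beside 3.52% and 6.74% of all genes, 2 were called by DESeq2 (CBX7 among them), beside 1573 of 14453, and 7 had an unadjusted p under 0.05, as did 4447 of all 13820 genes. The median log2 fold change of the 29 was 0.08. CBX7 had 125 and 86 counts for Scr, 114 and 131 for miR-23a KO, and 265 and 259 for miR-27a KO, a log2 fold change of 1.12 (SE 0.24) with an adjusted p of 0.0420 (edgeR, Benjamini-Hochberg). This became 0.222 and 0.225 without miR-27a KO replicates 1 and 2, and ranged from 0.00283 to 0.435 over its 7 alternatives. PHC2, the Polycomb gene with the most counts over all libraries, had a log2 fold change of -0.35 (SE 0.11). RBBP4, which had more counts than PHC2 in both miR-27a KO libraries, was at 0.36 (SE 0.08). Of 24 trithorax and other regulators tested, 0 were called by edgeR and 1 (CTCF) by DESeq2, beside 1418 of 13820 and 1573 of 14453 genes, and 4 had an unadjusted p under 0.05. MLLT1, with the most counts of these, had a log2 fold change of -0.38 (SE 0.08), under 1.5-fold. Of 5 TALE cofactors tested, 0 were called by edgeR or DESeq2 and 3 had an unadjusted p under 0.05, with PBX2, the gene with the most counts, at -0.22 (SE 0.08). PKNOX1, chosen after its values were seen, had 120 and 166 counts for Scr, 148 and 218 for miR-23a KO, and 268 and 272 for miR-27a KO. In the other 2 comparisons edgeR called 0 genes of any of these lists. DESeq2 called STRA6 in both, as in miR-27a KO against Scr, and CDX2 between the KO groups. STRA6, at 0 and 4 counts in miR-23a KO, and CDX2, at 3 and 6 in miR-27a KO, were tested there only through the other group. Their calls in these comparisons are no more than descriptions. At an unadjusted p under 0.05, the retinoid and CDX list held 1 of 11 genes in miR-23a KO against Scr, beside 332 of 13786, and 6 of 11 in miR-27a KO against miR-23a KO, beside 1207 of 13841, and the Polycomb, TALE and neighbour lists held 0 and 1 each, and the trithorax list 0 and 0. CYP26B1, RARA, RXRA and LNPK in the plot of these genes were also chosen after their values were seen.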

How the data were processed

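RNA-seq was measured in 6 libraries of HepG2, with 2 libraries in Scr and in each KO group, assigned by their titles. The authors deposited expected counts per gene in columns named FPKM, and the reading as estimated counts was taken from the numbers, whose totals differ between libraries. The submitters' processing notes name HISAT, StringTie, Cufflinks and GATK with no versions, and the tool that gave the counts and the genome build are not given in the sources used here. The labels and the study's methods name different library kits, of which 1 keeps strand, and whether strand was used in counting is not given either.

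Counts were rounded to whole numbers, filtered with filterByExpr, scaled by TMM (factors 0.792 to 1.14) and tested with edgeR 4.0.16 (glmQLFit and glmQLFTest, R 4.3.3) on each pair of groups, fitted across all genes with Benjamini-Hochberg adjustment. The plan held a test for FPKM and one for counts, and the count test was used. Calls needed an adjusted p under 0.05 with more than 1.5-fold difference. Of the 24 HOX genes, 8 passed the filter in miR-23a KO against Scr and 9 in each of the other comparisons. FPKM was computed from TMM-scaled counts and the longest transcript in GENCODE release 29, matched for 89.5% of genes. As alternatives, DESeq2 1.42.0, median-ratio scaling, no filter, all 6 libraries in one fit, a block for the replicate number, correction of GC content and length by loess (span 0.5), both of these together, and leaving out each library were used. For genes of the lists they were chosen after seeing the data. The fits were tested on simulated data, where edgeR found the planted changes in miR-27a KO against Scr and missed nearly all in the comparisons with miR-23a KO, so a count of 0 there says little. DESeq2 found more of them there, with some false calls.

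The members and gene lists were chosen with earlier results of these data known. Named with values were members with at least 10 counts in at least 1 library, called members, the member with the highest FPKM of each cluster, called genes of the lists, and the gene with the most counts in each list. Some genes that met this rule are not reported here. All value columns were used (0 left out).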

Additional observations from a re-analysis of the deposited data

Results flagged for a closer look

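HOXD1, HOXD3 and HOXD4 stood out because, after TMM scaling, each miR-27a KO library exceeded each Scr library and each miR-23a KO library was under them. The KO groups thus lay on opposite sides of the controls they share. Only HOXD1 and HOXD4 passed against Scr by edgeR, in miR-27a KO alone. As to size, the log2 fold change of miR-27a KO against miR-23a KO was 2.85 for HOXD1, 1.18 for HOXD3 and 8.32 for HOXD4. The test of this difference gave adjusted p-values of 0.101, 0.656 and 0.0961 (edgeR quasi-likelihood F-test, Benjamini-Hochberg adjustment), and over the 7 alternatives they ranged from 1.48e-07 to 0.101, from 0.0229 to 0.765 and from 3.77e-19 to 0.0988. These p-values are no more than descriptions, because the genes were picked for this difference. HOXD4 also passed the filter on low counts only through miR-27a KO. The same pattern held for 782 of 13556 genes tested against Scr in both KO groups (5.77%) and for 3 of 8 HOX genes. These 3 were picked for this pattern, and HOXD4 was tested in miR-23a KO against Scr only through its Scr counts. Their share is therefore no more than a description. The miR-23a KO libraries lay far apart for HOXD3, with 79 and 274 counts, and by library totals alone replicate 2 lay above Scr replicate 2. Also, HOXD4 reads may be shared with HOXD3, whose annotated span holds it. The part of either in the pattern was not tested.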

How the results depend on the processing

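Of 385 refits of single genes, 295 kept their direction and side of the threshold, 67 passed it newly, 13 no longer passed and 10 changed direction. The number of HOX genes called in miR-27a KO against Scr was 3, and 0 with all 6 libraries in one fit, and leaving out each library gave 3 to 5, counts that include HOXD9 and, for the 5, HOXD10, both at 0 in Scr. In miR-23a KO against Scr it was 0, and 1 (HOXD4) with DESeq2 and with the replicate block, with 0 to 2 on leaving out each library. In miR-27a KO against miR-23a KO it was 0, and 3 with DESeq2, 2 with all 6 libraries in one fit, 3 with the replicate block, 1 with GC content and length corrected, 4 with both, and 1 to 7 on leaving out each library, where HOXD9, at 0 in miR-23a KO, is in each 3, the 4 and the 7, and HOXD10 in the 7. HOXD4, near 0 in miR-23a KO, is in every count above 0 of the comparisons with miR-23a KO. It passed the filter there only through the other libraries. In miR-27a KO against Scr, correction of GC content and length, alone or with the replicate block, gave 4 genes, HOXD3 and HOXD9 among them. A lone library left in a group is assumed to vary like the other group. Replicate numbers are shared in the labels only, and same-numbered libraries deviated together with correlations of 0.185, 0.0169 and 0.0262 over 13132 genes in the 3 comparisons, so no pairing was used. Over all genes, 1418 were called in miR-27a KO against Scr, with 892 unfiltered, 64 in one fit of all libraries and 334 to 3716 on leaving out each library, while at an adjusted p under 0.001 the 4 became 0 to 841 over the 7 alternatives. Against the 0 of miR-23a KO against Scr, DESeq2 gave 63 and the replicate block 69, and against the 0 between the KO groups they gave 476 and 400, with 218 in one fit of all libraries, 284 with GC content and length corrected and 1025 with both. As log2 ratios of cluster sums, HOXA in miR-27a KO over Scr was 0.26 and 0.17 by summed CPM, HOXD was 2.00 and 1.84, and HOXA in miR-27a KO over miR-23a KO was 0.51 and 0.61 by raw totals. Changes of direction all concerned uncalled HOXA genes. With all 6 libraries in one fit, HOXA2 and HOXA5 in miR-23a KO against Scr were at -0.0295 and -0.0230. Leaving out each library gave -0.50 to 0.88 for HOXA2, -1.16 to 0.0351 for HOXA3 and -0.29 to 0.24 for HOXA5 in miR-23a KO against Scr, -0.24 to 1.19 for HOXA2 and -0.36 to 0.0173 for HOXA3 in miR-27a KO against Scr, and -0.17 to 0.97 for HOXA3 between the KO groups. The cause was not tested. Depth limits the posterior HOXD genes and all HOXB and HOXC genes, which had at most 34 counts in a library.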
